A study of Caenorhabditis elegans with 20 samples.

Results

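Nuclear hormone receptors are transcription factors with a zinc-finger DNA-binding domain and a ligand-binding domain that, in the best known members, takes up a sterol, a fatty acid or another small lipophilic molecule. The worm Caenorhabditis elegans carries a far larger family than insects or mammals. Most of its members are thought to descend from a single HNF4-like ancestor, and a small number have a direct counterpart in flies and vertebrates. The members that have been studied connect diet, fat storage, detoxification and larval development to gene expression. The genes described here are those with a symbol starting with nhr-, chosen by name and not by their values. A WBcel235 gene table from RefSeq holds 283 such genes, of which 269 are annotated as protein-coding and 14 as pseudogenes. Of these, 224 were among the 15568 genes of the RNA-seq table, and the other 59, among them nhr-23, nhr-25 and nhr-85, were not analysed here. The table leaves out genes whose mRNA oscillates during larval development.

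RNA-seq was carried out on whole L3 larvae of mixed sex grown at 20°C, with 2 libraries for each of 3 genotypes. These were wild type (strain N2), lin-35(n745) (strain JA1507), which lacks the Rb/p130-like subunit of the DREAM repressor complex, and htz-1(ok3099) (strain VC2490 in the labels, VC2480 in the methods), which lacks zygotic histone variant HTZ-1/H2A.Z. The lin-35 strain had been outcrossed, and the htz-1 homozygotes were the non-GFP progeny of heterozygous mothers balanced with nT1[qIs51], so they could carry maternal product. Sucrose gradients were used to clean N2 and lin-35 larvae, whereas htz-1 larvae were picked out with a COPAS sorter, and this step cannot be told apart from the htz-1 genotype. That the paired libraries of each genotype were grown separately is not stated, and a p-value here rests on the difference between such libraries, part or all of which could be technical. In whole larvae, fewer cells of a type and less RNA per cell cannot be told apart.

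The deposited values are RPKM, the reads of a gene divided by the length of its exon model and by the depth of the library, so levels can be compared between genes. Each value equals a whole number of reads, from which library totals of 13604791 to 18301926 reads were recovered, with 73.9% to 77.2% of them in the listed genes. The nhr genes together took 0.220% to 0.305% of the reads, or 29888 to 50153 reads per library. The lin-35 transcript stood at 12.1 and 11.1 RPKM in N2 and at 12.8 and 13.3 RPKM in lin-35, and since n745 is a nonsense allele this does not check the labels. The htz-1 transcript stood at 78.6 and 81.3 RPKM in N2 and at 65.6 and 27.8 RPKM in htz-1, and with 1 of these libraries near N2 it is no check of the labels either. Of 10 tested germline markers 5 were higher in lin-35 and 4 in htz-1, and the 11 measured ones summed to 263 and 285 RPKM in N2, 857 and 910 in lin-35, against 313 and 382 in htz-1. Of 6 tested intestine markers 2 were higher and 4 lower in lin-35 and 3 were lower in htz-1, with sums of 2635 and 2411 RPKM in N2, 1932 and 1863 in lin-35, against 1983 and 1619 in htz-1. Of 6 body wall muscle markers 4 were lower in lin-35 and none was called in htz-1, of 8 neuron markers 1 was higher and 1 lower in lin-35 and 1 higher and 2 lower in htz-1. Only 2 of 8 hypodermis markers were measured. Of these lin-26 was higher in both mutants, by 0.67 and 1.23 log2 units, and elt-1 was called in neither, at -0.22 and -0.33.

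In wild-type L3 larvae most nhr genes were expressed at low levels. The median over the 224 members was 2.20 RPKM in N2, against 3.47 RPKM over all genes of the table. A mean above 10 RPKM in N2 was found for 40 members, 34 had no read in either N2 library, and 16 had none in any library. The highest was nhr-114, with 143 and 85.4 RPKM, a receptor that protects the germline from harmful dietary metabolites. Next came nhr-97 at 87.6 and 70.8 RPKM, whose range overlapped that of nhr-114, and nhr-17 at 68.6 and 43.0 RPKM, whose range did not reach that of nhr-97. The fourth was nhr-31 at 42.4 and 39.2 RPKM, which directs vacuolar ATPase genes in the excretory cell, and its range overlapped that of nhr-105 at 32.9 and 39.6 RPKM. Below them stood nhr-40 at 32.4 and 32.6 RPKM and nhr-49 at 27.5 and 31.03 RPKM, a regulator of fatty acid desaturation and beta-oxidation. The first 10 ended with nhr-68 at 26.2 and 24.1 RPKM, a factor of the propionate shunt, nhr-100 at 22.4 and 24.3 RPKM and nhr-34 at 18.9 and 21.9 RPKM. The ranges of nhr-68 and nhr-100 overlapped, while each of the other neighbours in this part of the order was separated in both libraries.

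**Figure D1:**
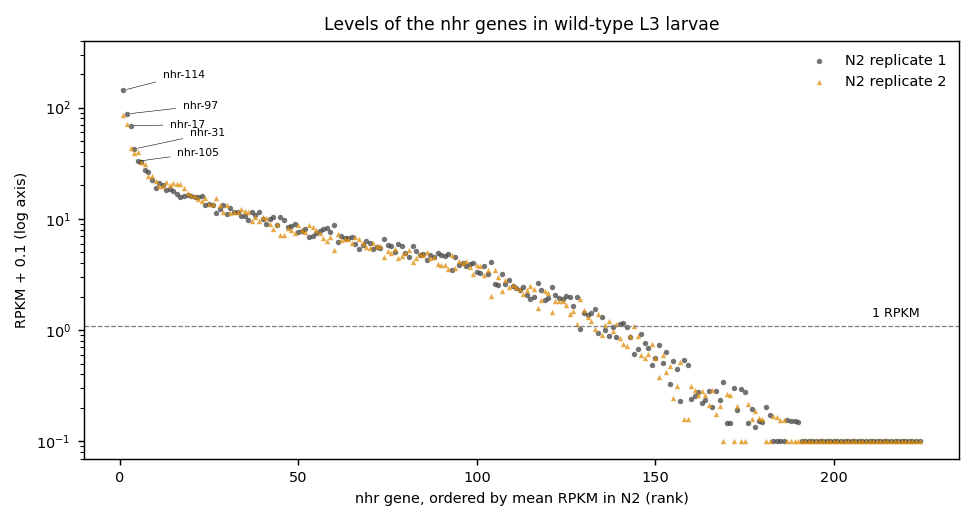
RPKM of the 224 nhr genes in the 2 N2 libraries (log axis, 0.1 added so that genes at 0 can be drawn), ordered by their mean. The leading gene, nhr-114, stands at 143 and 85.4 RPKM, and 34 genes lie on the floor of the plot in both libraries.

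For comparisons, the 9679 genes with a mean of at least 1 RPKM over the 6 libraries were tested with limma on log2(RPKM + 0.5). The fold changes come from RPKM scaled between libraries. Printed levels, sums and statements of overlap use RPKM as deposited. Because of the added 0.5, changes of weakly expressed genes come out too small. Of the nhr genes 142 were tested and 82 fell under the filter. Genes with an adjusted p under 0.05 after Benjamini-Hochberg adjustment over all tested genes are called higher or lower. None of the 224 measured nhr genes is on the study's list of genes whose promoter was bound by all DREAM members at L3. The list as read here held 532 genes, of which 492 were among the 15568 genes of the RNA-seq table.

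In lin-35 larvae few nhr genes passed the test, and most fold changes were small. Of the 142 tested, 6 rose and 7 fell relative to N2, or 9.15%, where 23.8% of all tested genes were called. By direction, 12.1% of all genes were higher and 11.6% lower, against 4.23% and 4.93% of nhr genes. By the mean over the 6 libraries, 3 of 40 members above 10 RPKM were higher and 1 lower (7.5% and 2.5%, against 11.5% and 17.5% of all genes at that level). Of 102 members between 1 and 10 RPKM 3 were higher and 6 lower (2.94% and 5.88%, against 13.1% and 3.11% of all genes), so that at this level the share of falls was above that of all genes. At an unadjusted p under 0.05 there were 16 higher and 18 lower nhr genes. Changes of more than 1 log2 unit were found for 3 members, or 2.11%, against 8.59% of all tested genes. The median log2 fold change was 0.05 for nhr genes and -0.01 for all tested genes. The direction of the calls depended on how libraries were scaled: the RPKM as deposited, where the median gene lay 0.15 log2 units above N2, gave 13 higher and 2 lower, quantile normalization gave 4 and 14, and size factors from the tested genes alone gave 8 and 5. The count also fell to 4 without N2 replicate 1, to 6 without N2 replicate 2 and to 8 without lin-35 replicate 2.

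**Figure D2:**
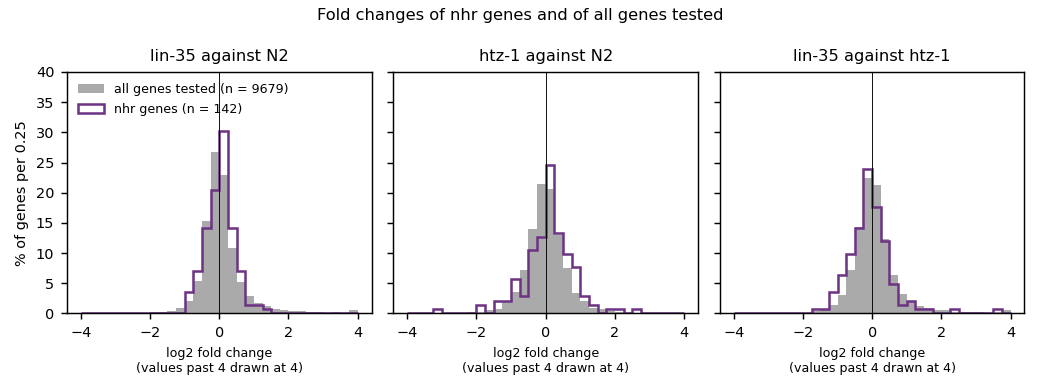
Share of genes (%) in bins of 0.25 log2 units of fold change, for all 9679 tested genes (grey) and the 142 tested nhr genes (purple outline), in the 3 comparisons. In lin-35 against N2 the nhr genes lie close to 0, with 3 beyond 1 log2 unit, and in htz-1 against N2 18 lie beyond 1.

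The 3 nhr genes with the largest rises in lin-35 were nhr-21, nhr-99 and nhr-15. The summed germline markers were also higher in lin-35 (857 and 910 against 263 and 285 RPKM). That sum rests mostly on pgl-1, pgl-3 and glh-1, which rose, as did him-3 and syp-1. The markers glh-2, glh-4, htp-3, gld-1 and syp-2 were not called (0.40, -0.32, -0.30, -0.30 and -0.05). The part of these markers in the rises of the 3 nhr genes was not tested. The level of nhr-21 was 20.1 and 19.8 RPKM in N2, 53.6 and 74.6 RPKM in lin-35, against 12.9 and 10.1 RPKM in htz-1. The lin-35 libraries lay above and the htz-1 libraries below both N2 libraries, with log2 fold changes of 1.46 (SE 0.18, adjusted p = 0.00185 from limma) and -0.79 (SE 0.18, adjusted p = 0.0184 from limma). It was the only nhr gene called in opposite directions in the 2 mutants, and its fall in htz-1 lost the call without either N2 library or without htz-1 replicate 2. For nhr-15 the levels were 3.91 and 3.10 RPKM in N2, 10.4 and 9.50 in lin-35, against 5.12 and 3.38 in htz-1. Both lin-35 libraries were above the other 4, while the N2 and htz-1 libraries overlapped. The rise of nhr-15 was 1.22 log2 units in lin-35 (SE 0.20, adjusted p = 0.00561 from limma), and its value in htz-1 was 0.22 (SE 0.20, adjusted p = 0.437 from limma). The calls of nhr-21, nhr-99 and nhr-15 in lin-35 held under every alternative that was run, and these were the only 3 of the 13 that did.

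The other rises and the falls in lin-35 were smaller. The gene nhr-116 rose by 0.99 log2 units, nhr-64, a regulator of lipid metabolism, by 0.55, and nhr-274 by 0.47. The calls of the 7 falls were all lost without N2 replicate 1. These falls ran from -0.87 for nhr-115 to -0.51 for nhr-121. Between them were nhr-65 at -0.84, nhr-201 at -0.78, nhr-202 at -0.71, nhr-228 at -0.64 and nhr-8 at -0.53. The last is a relative of the dafachronic acid receptor DAF-12 and takes part in sterol and xenobiotic handling. Its levels were 9.84 and 8.83 RPKM in N2, 7.32 and 7.03 in lin-35, against 6.28 and 7.26 in htz-1, so that the mutant libraries were all below both N2 libraries while overlapping each other. The level of nhr-65 was 7.56 and 6.71 RPKM in N2, 4.30 and 4.24 in lin-35, against 7.17 and 7.00 in htz-1. The lin-35 libraries lay below the other 4, and the mutants also differed when compared directly (log2 difference -0.82, SE 0.13, adjusted p = 0.00535 from limma).

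In htz-1 larvae nhr genes changed in both directions. Of the 142, 25 were higher and 22 lower than in N2, or 33.1%, beside 31.7% of all tested genes, so the share called was near the background. By direction it was 17.6% higher and 15.5% lower, against 15.2% and 16.5% of all tested genes. Changes above 1 log2 unit were found for 18 members, or 12.7%, against 9.43% of all tested genes, and the median fold change was 0.14 against -0.005 for all tested genes. The count fell to 18 without N2 replicate 1, to 23 without N2 replicate 2 and to 25 without htz-1 replicate 2.

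By expression level the split of rises and falls was uneven, which is given as a description with no test. Among the 40 members with a mean above 10 RPKM over the 6 libraries, 6 were higher and 12 lower in htz-1, and among the 102 between 1 and 10 RPKM, 19 were higher and 10 lower. For all tested genes the shares were 17.01% higher and 20.5% lower above 10 RPKM, and 12.6% higher and 10.6% lower below it. Since the htz-1 libraries enter that mean, the split was also read by the N2 level. There a low N2 value itself favours a rise and a high one a fall. The htz-1 libraries still entered through the filter for testing. For example, nhr-178 passed it with a mean of 0.68 RPKM in N2 and 2.70 in htz-1. Of 40 tested members above 10 RPKM in N2, 3 were then higher and 13 lower. That is 7.5% and 32.5%, against 14.0% and 22.8% of all tested genes at that level. Of the other 102, 22 were higher and 9 lower. That is 21.6% and 8.82%, against 16.8% and 8.36% of all tested genes up to 10 RPKM in N2. Of the 10 nhr genes that led the order in N2, 6 fell in htz-1 and the other 4, nhr-40, nhr-49, nhr-68 and nhr-100, did not pass the test. The 10 were picked by the N2 values they are compared with, which favours falls. Of the 6 falls, those of nhr-114, nhr-97 and nhr-34 lost their call without N2 replicate 1. The calls of nhr-17, nhr-31 and nhr-105 held under every alternative. None of these 10 was called in lin-35, but this depended on the fit. The genes nhr-97 and nhr-31 were called lower with only N2 and lin-35 in the fit, with limma-voom and without either htz-1 library. With a replicate block in the fit, nhr-97 and nhr-31 were also called lower and nhr-17 was called higher. Without lin-35 replicate 2 nhr-34 was called lower, at -0.68 log2 units.

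The deepest fall in htz-1 was that of nhr-17, the third most abundant nhr gene of wild-type larvae. It stood at 68.6 and 43.0 RPKM in N2, 121 and 73.0 in lin-35, against 6.69 and 5.92 in htz-1. The htz-1 libraries were far below the other 4, with a log2 fold change of -3.02 (SE 0.26, adjusted p = 0.000668 from limma). In RPKM as deposited both lin-35 libraries were above both N2 libraries. After scaling between libraries, lin-35 replicate 2 was below N2 replicate 1, so the groups overlapped. The scaled difference was 0.61 log2 units (SE 0.26, adjusted p = 0.147 from limma). It did not pass, except with a replicate block in the fit. The gene nhr-62, needed for the longer life span of worms under dietary restriction, stood at 10.2 and 8.09 RPKM in N2, 7.39 and 4.77 in lin-35, against 1.61 and 2.39 in htz-1. Its fall in htz-1 was 1.97 log2 units (SE 0.25, adjusted p = 0.00209 from limma), and all 4 mutant libraries were below both N2 libraries. The gene nhr-53 stood at 10.6 and 12.2 RPKM in N2, 4.39 and 10.9 in lin-35, against 3.87 and 2.28 in htz-1, and its 2 lin-35 libraries differed so widely that 1 lay close to each of the other genotypes. Its fold change in htz-1 was -1.79 (SE 0.40, adjusted p = 0.0161 from limma), a call lost without either N2 library or without htz-1 replicate 2.

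Several abundant receptors were lower in htz-1 and not called in lin-35. For nhr-105 the levels were 32.9 and 39.6 RPKM in N2, 33.8 and 54.6 in lin-35, against 13.1 and 12.4 in htz-1. For nhr-88 they were 15.7 and 15.9 RPKM in N2, 18.4 and 19.9 in lin-35, against 5.71 and 6.02 in htz-1. In both genes the htz-1 libraries lay below all others, by 1.47 and 1.37 log2 units against N2, whereas lin-35 differed from N2 by 0.07 and 0.09 units. The most abundant member, nhr-114, measured 143 and 85.4 RPKM in N2, 129 and 76.8 in lin-35, against 38.9 and 46.1 in htz-1. Its 2 N2 libraries were themselves far apart, and the fold change of -1.38 in htz-1 (SE 0.29, adjusted p = 0.0121 from limma) lost its call without N2 replicate 1 or htz-1 replicate 1. The gene nhr-97 fell by 1.01 log2 units in htz-1, nhr-47 by 0.93, nhr-34 by 0.86 and nhr-31 by 0.81. The summed intestine markers given above were also lower in htz-1 than in N2 (1983 and 1619 against 2635 and 2411 RPKM). That sum rests mostly on asp-1 and act-5, which fell, as did pept-1. The markers elt-2, ges-1 and vha-6 were not called (0.50, 0.14 and -0.14). Of these vha-6 adds more to the sum than pept-1, at 292 and 268 RPKM in N2, against 264 and 248 in htz-1. The part of these markers in the receptors' falls was not tested.

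The largest rise in htz-1 was in nhr-99. It stood at 1.80 and 2.39 RPKM in N2, 5.85 and 6.78 in lin-35, against 17.7 and 16.01 in htz-1. The 3 genotypes formed 3 separate steps, with log2 fold changes of 1.24 in lin-35 (SE 0.17, adjusted p = 0.00278 from limma) and 2.75 in htz-1 (SE 0.17, adjusted p = 0.000294 from limma). The direct difference between the mutants, -1.51 (SE 0.17), passed as well (adjusted p = 0.00131 from limma). The gene nhr-116 had the same order, at 0.842 and 1.30 RPKM in N2, 3.05 and 2.77 in lin-35, against 5.47 and 7.16 in htz-1. So did nhr-76, a receptor through which serotonin signals drive fat loss in the intestine, at 2.36 and 1.34 RPKM in N2, 4.50 and 3.56 in lin-35, against 8.96 and 6.90 in htz-1. For nhr-76 the rise was 1.87 log2 units in htz-1 (SE 0.25, adjusted p = 0.00239 from limma), and the value of 0.82 in lin-35 missed the threshold (SE 0.25, adjusted p = 0.0524 from limma).

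Other rises in htz-1 were not called in lin-35. The gene nhr-173 stood at 6.83 and 5.94 RPKM in N2, 6.88 and 8.38 in lin-35, against 14.9 and 13.2 in htz-1. The gene nhr-58 stood at 3.85 and 3.63 RPKM in N2, 5.42 and 4.74 in lin-35, against 8.70 and 14.6 in htz-1, with a wide gap between the htz-1 libraries. Their rises were 1.07 and 1.47 log2 units. The other named rises of this kind were 1.44 for nhr-178, 1.20 for nhr-213, 1.10 for nhr-36, 1.01 for nhr-208, 0.99 for nhr-112, 0.95 for nhr-50, 0.89 for nhr-232, 0.86 for nhr-145, 0.85 for nhr-204, 0.82 for nhr-120, 0.79 for nhr-70, 0.77 for nhr-32, 0.56 for nhr-122 and 0.51 for nhr-104. For nhr-32 the levels were 10.5 and 11.8 RPKM in N2, 14.3 and 15.1 in lin-35, against 20.0 and 18.8 in htz-1, and its call and that of nhr-70 were among those that held throughout. Of the 39 htz-1 calls among the named genes, 14 held in every alternative that was run, and none changed direction.

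**Figure D3:**
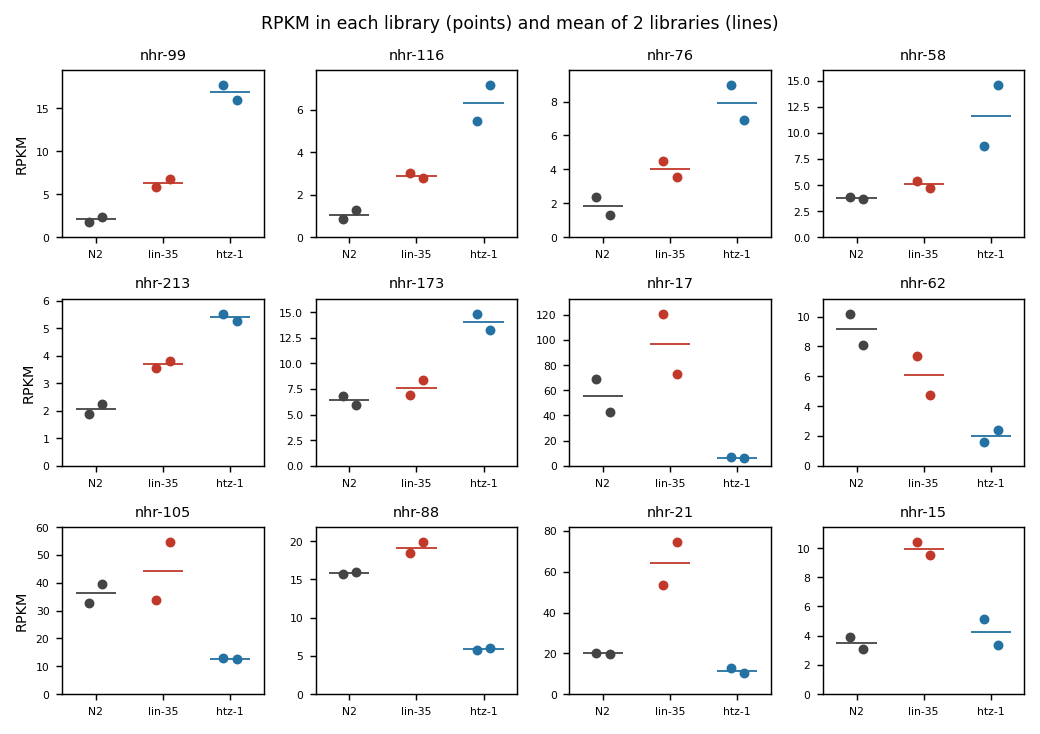
RPKM of 12 nhr genes in each of the 6 libraries (points), with the mean of the 2 libraries of a genotype (lines), each panel on its own axis from 0. The htz-1 points of nhr-99 (17.7 and 16.01 RPKM) stand above all others and those of nhr-17 (6.69 and 5.92 RPKM) below all others.

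The 2 comparisons with N2 were set side by side. Of the tested nhr genes, 4 nhr genes were higher in both mutants (nhr-99, nhr-116, nhr-64 and nhr-274) and 5 were lower in both (nhr-115, nhr-201, nhr-228, nhr-8 and nhr-121). The calls of the 5 lower genes were all lost in both mutants without N2 replicate 1, with no change of direction. Of the 4 higher genes, nhr-99 alone kept both calls under every alternative. The gene nhr-21 rose in lin-35 and fell in htz-1. The call was in lin-35 alone for nhr-15, nhr-65 and nhr-202, in htz-1 alone for 21 higher and 16 lower genes, and in neither for 92. A call in lin-35 alone was found for 2.11% of nhr genes and 11.7% of all tested genes, a call in htz-1 alone for 26.1% and 19.6%, and a call in both for 7.04% and 12.1%, with no test of these differences. Both comparisons share the N2 libraries, so these counts are no independent evidence of each other.

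**Figure D4:**
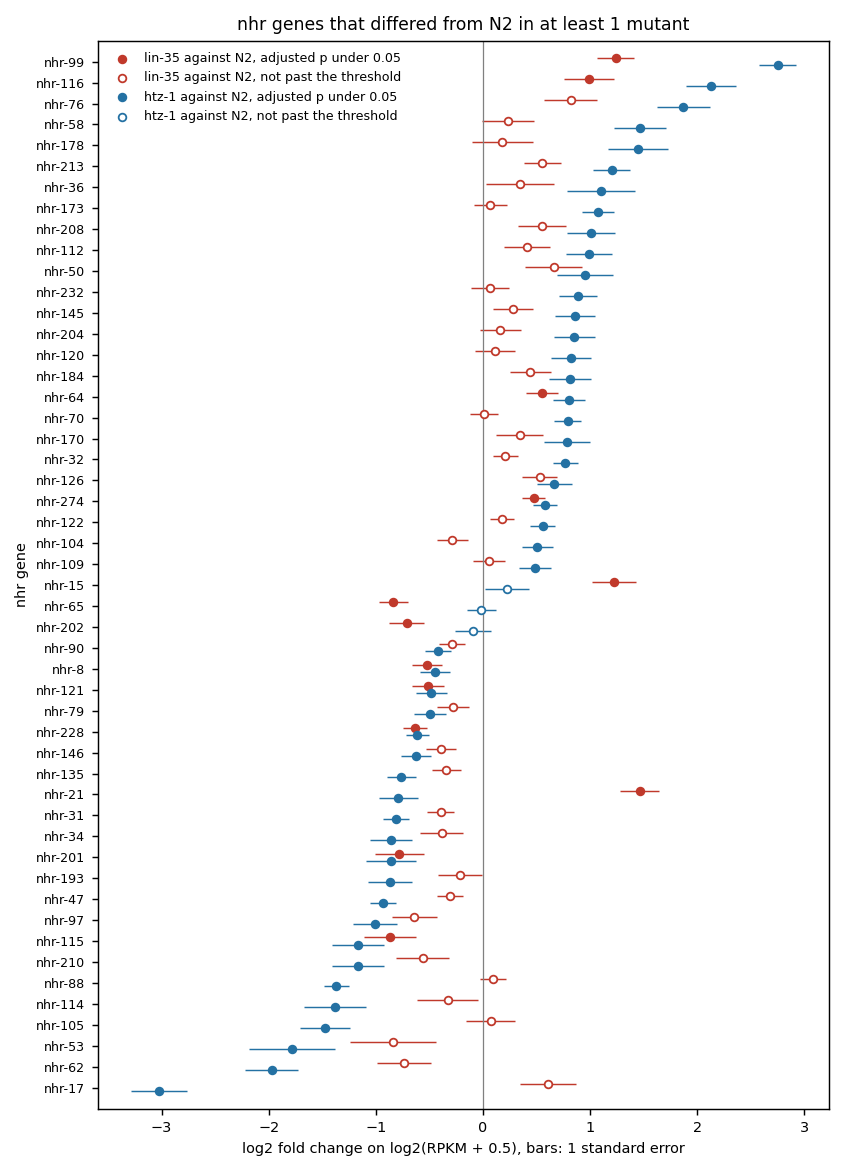
Log2 fold changes against N2 (points, with bars of 1 SE) of the 50 nhr genes called in at least 1 mutant, in lin-35 (red) and htz-1 (blue); filled points passed an adjusted p of 0.05. The order runs from nhr-99 (2.75 in htz-1) to nhr-17 (-3.02), and nhr-21 is the gene with filled points on both sides of 0.

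When the mutants were compared directly, lin-35 exceeded htz-1 for 11 nhr genes and htz-1 exceeded lin-35 for 25, or 25.4% in all, beside 29.8% of all tested genes. By direction that is 7.75% and 17.6% of nhr genes, against 15.3% and 14.5% of all tested genes. Without size factors the numbers were 16 and 16, and with quantile normalization 8 and 32. The count of 36 fell to 22 without lin-35 replicate 1, to 23 without lin-35 replicate 2, to 22 without htz-1 replicate 1 and to 13 without htz-1 replicate 2. The largest difference was that of nhr-17, at 3.63 log2 units (SE 0.26), followed by nhr-21 at 2.25 (SE 0.18), nhr-105 at 1.54 (SE 0.23) and nhr-88 at 1.46 (SE 0.12). On the other side nhr-99 was lower in lin-35 by 1.51 units, nhr-178 by 1.26, nhr-58 by 1.24, nhr-287, which was called in neither comparison with N2, by 1.17 and nhr-116 by 1.14. Neither nhr-13, a partner of NHR-49, nor nhr-176, a receptor that responds to the drug thiabendazole, was called against N2, but the mutants differed, with nhr-13 at -0.63 and nhr-176 at -0.70.

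Receptors known from work on metabolism, diet and stress were measured for 17 of 18 listed genes, and all 17 were tested. In lin-35, nhr-64 rose and nhr-8 fell, where 23.8% of all tested genes were called. In htz-1, nhr-76 and nhr-64 rose, the latter by 0.80 log2 units from 8.95 and 7.41 RPKM to 16.2 and 13.2. The genes nhr-62, nhr-114, nhr-31 and nhr-8 fell there, where 31.7% of all tested genes were called. The htz-1 call of nhr-8 was lost under several alternatives, among them the RPKM as deposited, no filter and a replicate block. The list's median log2 fold change was 0.04 in lin-35 and 0.23 in htz-1. The central fat regulator nhr-49 did not pass in either mutant, with fold changes of 0.03 and 0.22 (SE 0.11 each). Its partners nhr-66 and nhr-80 were at 0.38 and 0.37 in htz-1, with adjusted p = 0.0534 and 0.0899 from limma. Nor did nhr-10 and nhr-68, which switch on the propionate shunt, pass the test: nhr-10 was at -0.11 and -0.07 and nhr-68 at 0.07 and 0.50. Also not called were nhr-14, a regulator of iron uptake, at 0.16 and 0.08, nhr-45 at 0.30 and 0.34, nhr-69, which acts in insulin secretion, at 0.09 and 0.06, and nhr-86, which senses a pathogen metabolite, at 0.001 and -0.08, each given for lin-35 and then htz-1.

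Receptors known for development and those with a fly or vertebrate counterpart were fewer in the table. Of the 8 developmental genes 5 were measured and 4 tested, and none was called in either mutant. These were nhr-6, the NR4A-type receptor of spermatheca formation, at 0.31 and 0.42, nhr-67, the tailless-type receptor of the anchor cell, at 0.23 and 0.40, nhr-40 at -0.14 and -0.22, and nhr-60 at 0.18 and 0.06. The embryonic gene nhr-2 reached at most 0.183 RPKM in any of the 6 libraries. Of 10 genes with such a counterpart 5 were measured, and of the 4 tested only nhr-8 was called. The gene nhr-48 was at -0.04 and -0.17, and nhr-111 had no read in any library.

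Genes of the pathway around the receptors were read from further lists. DAF-12, the receptor for dafachronic acid that sets the choice between reproductive growth and dauer arrest, carries another gene name. The level of daf-12 was 48.7 and 42.0 RPKM in N2, 41.7 and 33.9 in lin-35, against 25.1 and 17.3 in htz-1. Its fold change was -1.11 in htz-1 (SE 0.17, adjusted p = 0.00437 from limma), while for lin-35 it was -0.44 (SE 0.17, adjusted p = 0.113 from limma). The gene daf-36, whose product takes the first step from cholesterol to dafachronic acid, went from 16.9 and 15.2 RPKM to 12.1 and 7.91 in lin-35, against 4.21 and 2.57 in htz-1. The 3 genotypes were again separate, with falls of 0.85 (SE 0.24) and 2.13 log2 units (SE 0.24). The last enzyme of that route, daf-9, was at -0.33 and -0.01 and was not called. Of the other receptors, sex-1, an X-chromosome signal element of sex determination, rose by 0.69 in lin-35. Over the list of receptors with another name, 3 of 6 were tested, with 1 rise in lin-35 and 1 fall in htz-1. Over 7 dafachronic acid and sterol transport genes 3 were tested, with 1 lower in each mutant. Of all tested genes 23.8% were called in lin-35 and 31.7% in htz-1. With 3 tested genes per list these counts cannot be set apart from that background.

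Among 4 cofactor genes, smo-1, which encodes the SUMO modifier, rose in both mutants, by 0.91 log2 units in lin-35 and 0.40 in htz-1. Its level was 168 and 175 RPKM in N2, 366 and 367 in lin-35, against 239 and 219 in htz-1, with no overlap between genotypes. The DAF-12 corepressor gene din-1 rose by 0.54 in htz-1, and the mediator subunit gene mdt-15, the coactivator of NHR-49, was at -0.08 and -0.17 and was not called. Of all tested genes 12.1% were higher in lin-35 and 15.2% in htz-1.

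Target genes were read from a pair of lists. All 4 measured propionate shunt genes, which NHR-10 and NHR-68 switch on, were lower in lin-35, where 11.6% of all genes were. Of the 6 intestine markers 4 were lower there too, whereas elt-2 and ges-1 were higher, by 0.65 and 0.52 log2 units. The 6 markers summed to 1932 and 1863 RPKM in lin-35 against 2635 and 2411 in N2. Their part in the falls of the shunt genes was not tested. The level of hphd-1, a dehydrogenase of the shunt, was 378 and 358 RPKM in N2, 160 and 162 in lin-35, against 209 and 293 in htz-1. The falls in lin-35 were 1.45 log2 units for hach-1, 1.37 for hphd-1, 1.29 for ech-6 and 1.12 for alh-8. In htz-1, hphd-1 and alh-8 fell by 0.58 and 0.53, and ech-6 and hach-1 were at -0.22 and -0.40 with widely spaced libraries. Of 4 measured NHR-49 targets, the flavin monooxygenase gene fmo-2 rose by 1.88 in lin-35 and the desaturase gene fat-7 fell by 1.90. In htz-1 the desaturase gene fat-6 fell by 1.03. Of all tested genes 23.8% were called in lin-35 and 31.7% in htz-1. The acyl-CoA synthetase gene acs-2 was at 113 and 250 RPKM in N2, 337 and 500 in lin-35, against 86.2 and 113 in htz-1. Neither comparison of acs-2 with N2 passed (1.10 and -0.77, SE 0.38), but the mutants differed by 1.88 log2 units (adjusted p = 0.0116 from limma).

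**Figure D5:**
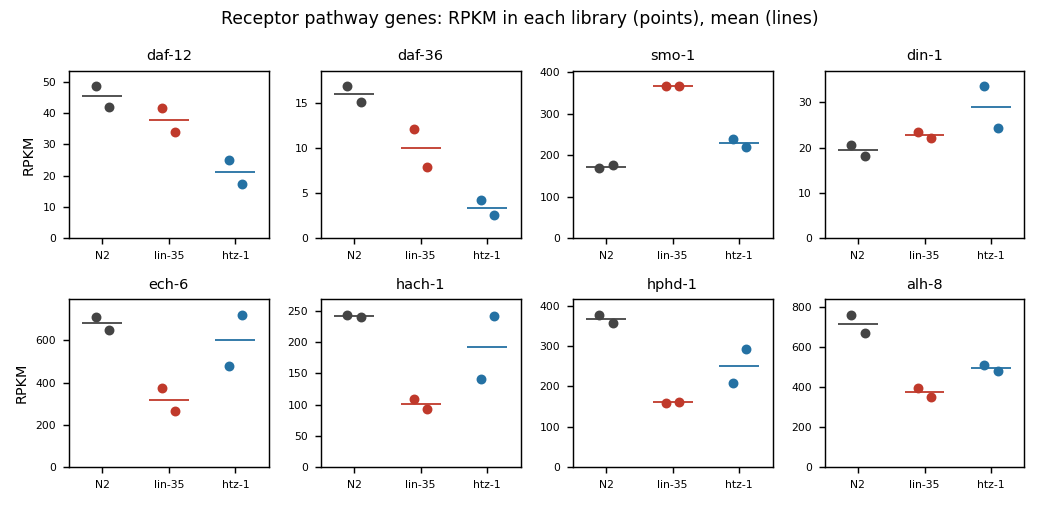
RPKM of 8 genes around the receptors in each of the 6 libraries (points), with the mean of the 2 libraries of a genotype (lines), each panel on its own axis from 0. daf-12 and daf-36 are lowest in htz-1, and the 4 propionate shunt genes in the lower row are lowest in lin-35.

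The nhr genes are crowded on chromosome V, which holds 141 of the 224 measured. Of the 93 tested members on chromosome V, 3 were higher and 5 lower in lin-35 (3.23% and 5.38%, against 15.3% and 11.4% of all tested genes on V), and 16 were higher and 11 lower in htz-1 (17.2% and 11.8%, against 17.6% and 17.7%). Of the 49 on other chromosomes, 3 were higher and 2 lower in lin-35 (6.12% and 4.08%, against 11.4% and 11.8% of all tested genes there). In htz-1, 9 of these were higher and 11 lower (18.4% and 22.4%, against 14.7% and 16.2%). Many lie directly beside each other: the reference holds 47 runs of at least 2 neighbouring nhr genes, the longest of 8 genes, and 115 measured members have such a neighbour. Of 72 tested members with an nhr neighbour, 11 were higher and 8 lower in htz-1 (15.3% and 11.1%), and of 70 without one, 14 were higher and 14 lower (20% each), where 15.2% and 16.5% of all tested genes were. In lin-35, 1 was higher and 5 lower with a neighbour (1.39% and 6.94%). Without one, 5 were higher and 2 lower there (7.14% and 2.86%), where 12.1% and 11.6% of all tested genes were. Some neighbours moved alike and others did not. In the run of 8 genes from nhr-186 to nhr-124, 2 were tested and none was called. The run of 6 that starts with nhr-99 had 5 tested genes, of which nhr-99 alone was called. Only 2 genes separate nhr-99 from nhr-201, which fell in both mutants and is itself the neighbour of nhr-202, called in lin-35 alone. In another run nhr-228 and nhr-115, with 2 genes between them, both fell in both mutants. The calls of nhr-201, nhr-228 and nhr-115 were lost in both mutants without N2 replicate 1, as was that of nhr-202 in lin-35. In a run of 5 on chromosome IV, nhr-122 rose and nhr-146 fell in htz-1, by 0.56 and 0.62 log2 units. Reads that fit more than 1 member of a recently duplicated run may have been dropped or shared in the counting, and the library kit does not mark strand, so reads of overlapping genes cannot be told apart either.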

How the data were processed

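RNA-seq values of 6 libraries (3 genotypes, 2 libraries each) were used, and the ChIP-seq libraries of the series were not used here. Per the methods and the submitters' processing notes, the authors aligned reads to WS220/ce10 with BWA, used HTSeq to count them over exons of WS235 gene models moved to ce10, compared genotypes with DESeq2 and deposited RPKM per library. The table's columns of the authors' own comparisons (log2 fold changes, p-values and adjusted p-values) were not used, and 0 other per-sample columns were left aside. Names were matched to a WBcel235 gene table for 15397 of 15568 genes. That table is on another build than the values, so no coordinates are given, and no sequences of the receptors were used here. Whole reads were recovered from the RPKM steps for 100% of the genes within a tolerance of 0.002 reads.

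Genotypes were compared with limma 3.58.1 (R 4.3.3, variance trend) on log2(RPKM + 0.5) for the 9679 genes averaging 1 RPKM or more. RPKM were first divided by median-of-ratios size factors (0.949 to 1.11) from genes above 0 in all libraries. Size factors from the tested genes alone had been fitted first and were replaced after their calls had been seen, so that this choice was made after seeing the data. All 3 genotypes entered 1 fit, with 3 residual degrees of freedom and 4.01 from the prior. Tests were two-sided, and calls were made at 0.05 after the Benjamini-Hochberg correction. The script was tested on simulated data. The members and lists were chosen with earlier results of these data known. Named nhr genes were the 10 highest in N2, the called genes of each comparison with N2 (at most the 15 largest rises and falls), the genes of the receptor lists, and called genes whose mutants differed. Of other lists up to 4 called members were named, and others (nhr-146, nhr-287, acs-2, daf-9, mdt-15) were named after their values were seen. As alternatives, scaling (none, quantile, the first size factors), the pseudocount (0.1, 1), the filter, the variance trend, a replicate block, fits of 2 genotypes at a time, limma-voom on recovered reads and leaving out each library were tried.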

Additional observations from a re-analysis of the deposited data

Results flagged for a closer look

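For 25 nhr genes that were called against N2 in at least 1 mutant, the effects in the 2 mutants differed by a test of the difference itself, the direct comparison of lin-35 with htz-1 at an adjusted p under 0.05 from limma. Values are log2 differences, lin-35 minus htz-1. They were positive for nhr-15 (1.0), nhr-17 (3.63), nhr-21 (2.25), nhr-31 (0.42), nhr-47 (0.62), nhr-62 (1.23), nhr-88 (1.46), nhr-105 (1.54) and nhr-114 (1.05). They were negative for nhr-32 (-0.56), nhr-58 (-1.24), nhr-65 (-0.82), nhr-70 (-0.78), nhr-76 (-1.05), nhr-99 (-1.51), nhr-104 (-0.79), nhr-116 (-1.14), nhr-120 (-0.71), nhr-122 (-0.38), nhr-173 (-1.0), nhr-178 (-1.26), nhr-202 (-0.62), nhr-204 (-0.69), nhr-213 (-0.65) and nhr-232 (-0.83). Both lin-35 libraries of nhr-21 were above N2 and both htz-1 libraries below it. For nhr-99 and nhr-116 both mutants were above N2, with htz-1 the higher, and for nhr-62 and nhr-31 both mutant values were below N2, with htz-1 the lower. With 2 libraries per genotype a gap within a group cannot be read as an outlying library, but some differences hung on 1 library: those of nhr-104, nhr-47 and nhr-116 lost their call without htz-1 replicate 2 and under no other alternative.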

How the results depend on the processing

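Leaving out 1 library at a time gave 4 to 15 nhr genes called in lin-35 against N2 (13 with all libraries), 18 to 50 in htz-1 against N2 (47) and 13 to 30 between the mutants (36). The lowest counts came without N2 replicate 1 for both comparisons with N2 and without htz-1 replicate 2 for the mutants. The lone library left in a genotype is then assumed to vary like the others. All other alternatives kept the 3 counts within 1.5 times their value. Of the named calls, 3 of 13 in lin-35, 14 of 39 in htz-1 and 9 of 27 between the mutants held under every alternative, and none changed direction. Limma-voom on the recovered reads called 15, 50 and 37. The size factors fitted first, an alternative listed after seeing the data, gave 13, 48 and 36, of which 11, 46 and 36 were shared with the calls reported. The median of the nhr genes in lin-35 turned from 0.05 to -0.12 with quantile normalization. Libraries of the same number share only that number: their deviations correlated at 0.32 (N2 and lin-35), 0.099 (N2 and htz-1) and 0.016 (lin-35 and htz-1), and the replicate block gave 17, 50 and 40 calls. Without the filter on low values 208 members were tested and 9, 41 and 33 called, of which 8, 37 and 24 were shared with the calls reported. Below 1 RPKM the reads per library are few, so that small differences are not detectable at this depth.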

Other observations

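Below the filter, 2 of the 82 low nhr genes, chosen after their values were seen, had reads in 1 genotype above all. The gene nhr-249 had 20 and 9 reads in the lin-35 libraries (2.14 and 0.950 RPKM) and 0 in each N2 and htz-1 library. Against a floor of 3 reads over the group this is at least 10.7-fold higher than in N2 and at least 9.96-fold higher than in htz-1, for counting error only. Its sequence name, ZK381.3, shares its first part with those of him-3 (ZK381.1) and pgl-1 (ZK381.4). These rose in lin-35 by 2.96 and 1.81 log2 units, and whether their reads add to those of nhr-249 was not tested. The gene nhr-38 had 20 and 16 reads in htz-1, 0 and 1 in N2 and 0 and 3 in lin-35. Neither was tested.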
